A study of Mus musculus with 33 samples.

Results

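The comparison between Neil1 mutant and control embryoid bodies (EBs) was taken up gene group by gene group, to describe which lineages and pathways were lower or higher in the mutant EBs. It used all libraries named EBs_Neil1_KO and EBs_Control, which were 6 of the 33 RNA-seq libraries of the series, 3 of each genotype. EBs are aggregates that mouse embryonic stem cells (mESCs) form when leukemia inhibitory factor (LIF) is withdrawn, and they make derivatives of all germ layers; here they were grown for 8 days and received no retinoic acid (RA). Both groups came from E14TG2a, a male mESC line. The mutants had been edited with Cas9 and 2 guides in Neil1, and the controls had been through the same procedure with the empty pX330 plasmid. Each library was a different clone, namely control clones #1, #4 and #7 (replicates 1 to 3) and Neil1 clones #7, #9 and #11 (replicates 1 to 3). Values below follow that order, so that a clonal difference within a genotype can be seen beside the difference between genotypes. Each p-value therefore measures the difference against the spread between clones.

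NEIL1 is a DNA glycosylase that cuts oxidised bases out of DNA and thereby starts base excision repair. In EBs, cells leave pluripotency, pass through an epiblast-like state, and part of them go through a state like the primitive streak, where Wnt, BMP and Nodal signals turn on Brachyury (T) and its partners before mesoderm and endoderm form. Cells that stay out of this route give neural and surface ectoderm, and posterior mesoderm and neural tissue later turn on the Hox genes in order of their position in the clusters. Because the libraries are bulk RNA, fewer cells of a type and less RNA per cell cannot be told apart in any value below.

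The 2 guides define the allele and are given 5′ to 3′ on the minus strand, the coding strand of Neil1, with the protospacer-adjacent motif in capitals.
mmNeil1_P1_1: gggaggaacaggtttgtaagTGG
mmNeil1_P1_2: gatgtcaggatccttccagcTGG
In the NCBIM37 assembly, Neil1 lies at chr9:56990607-56995929. The first guide matched chr9:56995167-56995186, outside any exon, and the second matched chr9:56994583-56994602 inside a coding exon. The predicted cuts were 584 bp apart and enclosed 256 of the 434 bases of the first coding exon (chr9:56994408-56994841; transcript Neil1-201, 1167 coding bases over 9 exons).

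The 6 libraries held 21758303 to 48350904 counts on genes, and 15479 genes were tested. Levels are given as CPM, the counts of a gene per 1e6 counts of the library. Neil1 itself was at 5.48, 8.698 and 8.199 CPM in the control libraries and 5.73, 1.31 and 2.93 CPM in the Neil1 mutant libraries. The mutant libraries overlapped the control libraries, because Neil1 clone #7 was at the level of control clone #1, while clones #9 and #11 were below every control (log2 fold change -1.18 ± 0.45, adjusted p = 0.0869). The counts cover the whole gene, so transcripts lacking only the bases between the cuts are still counted, and the level does not check the deletion. Over 10-Mb windows, 3 of 222 were more than 0.5 (log2) above the control mean in every Neil1 library, all on chromosome X at 70 to 80 and 90 to 110 Mb (0.81 to 0.96; controls -0.079 to 0.104). The window at 40 to 50 Mb of X was lower in all Neil1 libraries (-0.419, -0.563 and -0.670; controls -0.074 to 0.090), and the one at 50 to 60 Mb was at -0.205, -0.249 and -0.245. Chromosome 9, which carries Neil1, had a median difference of -0.29 in Neil1 clone #11 and of 0.020 and -0.0030 in clones #7 and #9. List members on X are named as such below, and the part of dosage in their values was not tested. All 3 Neil1 clones shared this X pattern in EBs and no control clone had it. Some X genes were higher in Neil2 mutant EBs too, as given in the comparison with Neil2 below. In the EB comparison the genotype therefore cannot be told apart from it, for genes on any chromosome. The p-values take the clones as independent, which was not tested.

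Losses ran deeper than gains. A gene was called at a false discovery rate below 0.1 with an absolute log2 fold change above 0.5 (edgeR quasi-likelihood test, Benjamini-Hochberg adjustment), which called 23.5% of all tested genes, 10.4% raised and 13.1% lowered. Outside the sex chromosomes 9.57% were raised. The libraries of the 2 genotypes did not overlap in CPM, in either direction, for 44.2% of all tested genes. Of the called genes, 1074 fell and 686 rose by more than 1 on the log2 scale, 359 fell and 79 rose by more than 2, 165 fell and 10 rose by more than 3, and 38 fell and 0 rose by more than 5. Among genes with at least 10 counts in every library the numbers beyond 3 were 60 that fell and 3 that rose. There were 11 genes with at least 5 CPM in every control library and less than 0.5 CPM in every Neil1 library, and 0 genes with the converse. Among these 11 were Acta2 of smooth muscle, the matrix gene Tnc, the nephron progenitor factor Six2 and the caudal factor Nkx1-2. The 36 gene lists below held 711 tested genes, of which 210 were lowered and 109 raised. Where a list below had 0 calls in a direction, edgeR gave 0 members at an unadjusted p below 0.05 in that direction for raised Hox, streak, smooth muscle, axon guidance and imprinted genes and for lowered macrophage, NRF2 and respiratory chain genes. It gave 1 for lowered pluripotency and germ cell genes, and 3 for lowered parietal endoderm and raised base excision repair genes. DESeq2 called 0 in all these but 1 raised imprinted gene. The bars of calls by list show that the lowered share was highest for Hox, smooth muscle, primitive streak and mesenchymal matrix genes and the raised share for pluripotency and germ cell genes.

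**Figure D1:**
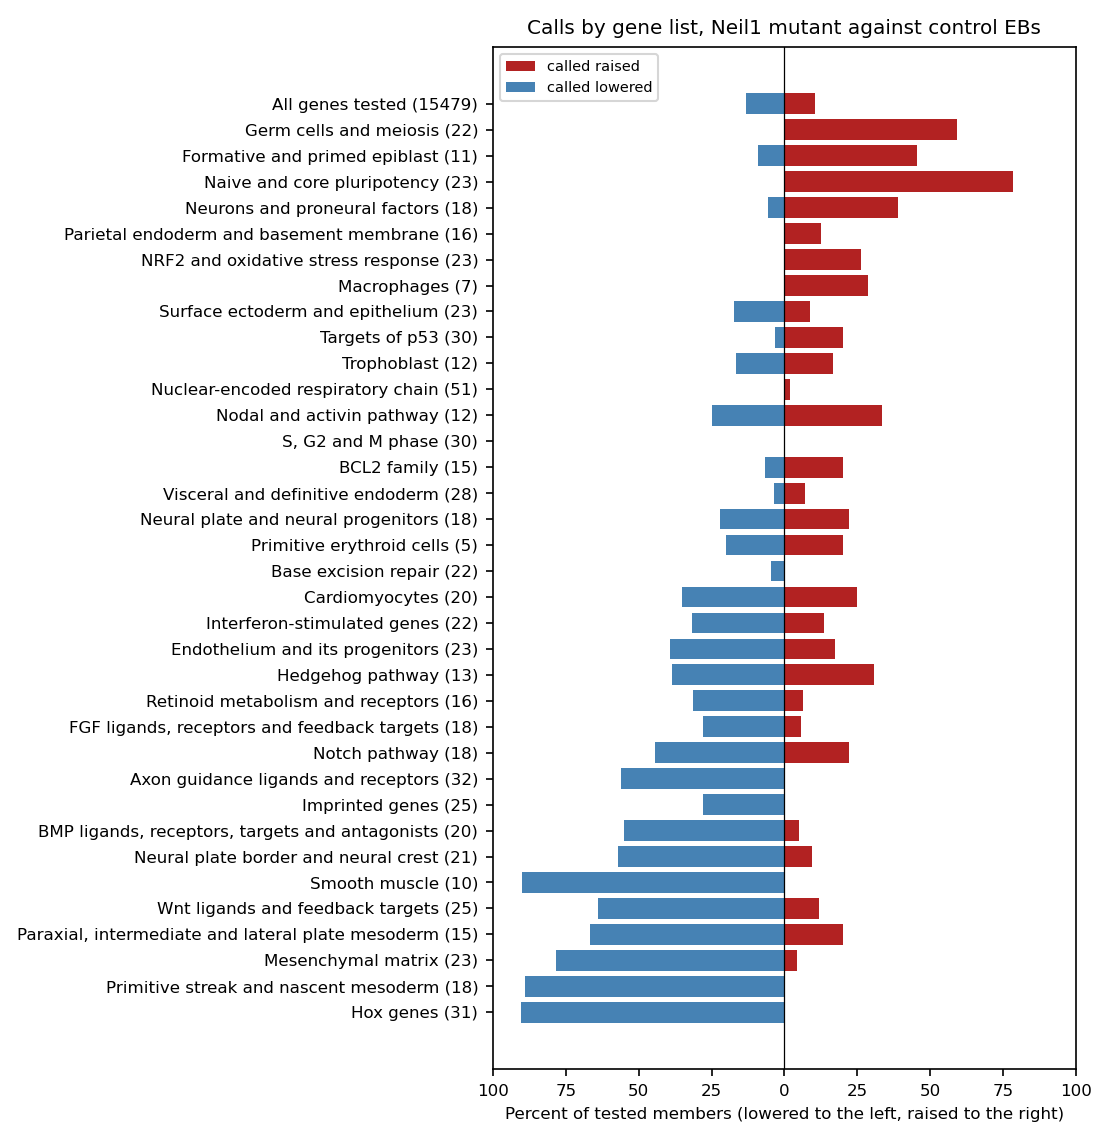
Share of tested members called lowered (blue, left) and raised (red, right) in Neil1 mutant EBs, in percent, for each gene list with its number of tested members in brackets; all tested genes are at the top. Hox genes (28 of 31 lowered), primitive streak genes (16 of 18) and smooth muscle genes (9 of 10) extend furthest to the left, and naive pluripotency genes (18 of 23 raised) furthest to the right.

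Primitive streak and nascent mesoderm. Of 18 tested genes of this list, 16 were lowered and 0 raised, and the median log2 fold change was -3.27, against -0.00058 over all tested genes. The T-box factor Brachyury (T), which defines streak and nascent mesoderm, was at 65.7, 67.04 and 111 CPM in the control libraries and 5.82, 2.85 and 4.31 CPM in the Neil1 mutant libraries (log2 fold change -4.24 ± 0.32, adjusted p = 9.42e-05). Mixl1, a homeobox gene of streak cells fated to mesoderm and endoderm, was at 97.6, 62.03 and 102 CPM in the control libraries and 3.36, 3.39 and 1.27 CPM in the Neil1 mutant libraries (log2 fold change -5.05 ± 0.37, adjusted p = 0.000139). Neither gene overlapped between the groups, and the lowest control library exceeded the highest mutant library by a wide margin. Wnt3, the ligand that starts the streak, was at 38.03, 29.01 and 30.1 CPM in control against 3.36, 1.77 and 3.29 CPM in Neil1 mutant EBs (log2 fold change -3.53 ± 0.23, adjusted p = 6.12e-06). Eomes, which acts in anterior streak and in definitive endoderm, fell less, from 104, 81.7 and 112 CPM to 34.8, 33.7 and 17.2 CPM (log2 fold change -1.80 ± 0.27, adjusted p = 0.00321). The smaller change in Eomes than in Mixl1 or T was also seen for the organizer gene Gsc (-2.04 ± 0.33) and for the epithelial to mesenchymal transition factor Snai1 (-1.20 ± 0.17).

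The caudal homeobox gene Cdx2, an activator of posterior Hox genes, was at 78.04, 72.6 and 46.3 CPM in the control libraries and 1.61, 1.19 and 1.55 CPM in the Neil1 mutant libraries (log2 fold change -5.50 ± 0.24, adjusted p = 1.28e-06). Evx1 was at 31.2, 24.1 and 29.97 CPM in control against 0.615, 0.654 and 0.918 CPM in Neil1 mutant EBs (log2 fold change -5.26 ± 0.20, adjusted p = 1.85e-07). Nkx1-2, which marks caudal progenitors, was at 20.8, 15.5 and 6.25 CPM in control against 0.379, 0.193 and 0.283 CPM in Neil1 mutant EBs (log2 fold change -5.65 ± 0.55, adjusted p = 0.000184). For all of these the 3 mutant clones lay close together and far under every control. Wnt5a, a ligand of elongating mesoderm, fell from 104, 81.7 and 50.3 CPM to 1.51, 1.46 and 2.33 CPM (log2 fold change -5.46 ± 0.34, adjusted p = 3.19e-05). Mesp1, the first factor of cardiovascular progenitors, was at 2.48, 2.47 and 5.48 CPM in control against 0, 0.07699 and 0.106 CPM in Neil1 mutant EBs (log2 fold change -5.63 ± 0.60, adjusted p = 0.000101). The presomitic factor Msgn1 was at 1.59, 1.11 and 3.698 CPM in control against 0.0947, 0.07699 and 0.141 CPM in Neil1 mutant EBs. Mesp2 (0.10 ± 0.24) and the organizer factor Lhx1 (-1.17 ± 0.50, adjusted p = 0.133) were not called. Summed over the list, the level was 593, 488 and 546 CPM in control and 72.2, 68.5 and 48.4 CPM in Neil1 mutant EBs.

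**Figure D2:**
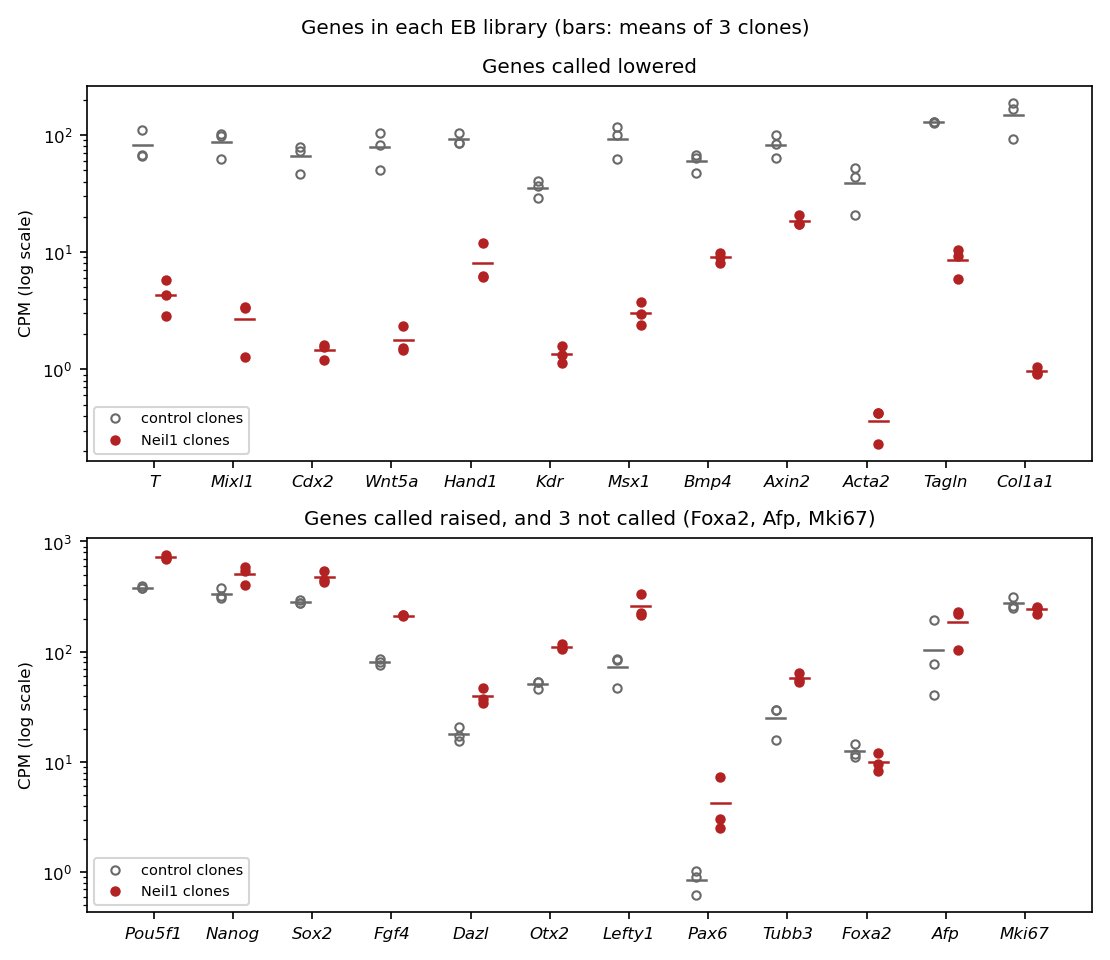
Level of 24 genes in each of the 6 EB libraries, in CPM on a log scale; grey open circles are control clones, red circles Neil1 clones, and the bars are means of 3 clones. In the upper panel every Neil1 clone lies below every control clone for all 12 genes; in the lower panel Foxa2, Afp and Mki67, which were not called, overlap between the groups.

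Hox genes. Hox genes specify position along the body axis, and the genes at the end of each cluster with higher paralog numbers act more posteriorly. Of 31 tested Hox genes, 28 were lowered and 0 raised (median log2 fold change -3.54), and the fall was found in all 4 clusters (11 of 11 in Hoxa, 4 of 6 in Hoxb, 6 of 7 in Hoxc and 7 of 7 in Hoxd). By position, the median was -1.75 over 9 tested genes of paralog groups 1 to 4, -3.79 over 12 genes of groups 5 to 9, and -4.38 over 10 genes of groups 10 to 13. In the Hoxa cluster Hoxa10 was at 12.3, 9.804 and 5.198 CPM in the control libraries and 0.7101, 0.731 and 0.883 CPM in the Neil1 mutant libraries (log2 fold change -3.54 ± 0.34, adjusted p = 4.69e-05). In the Hoxd cluster Hoxd9 was at 13.5, 15.5 and 9.52 CPM in control against 0.426, 0.808 and 0.601 CPM in Neil1 mutant EBs (log2 fold change -4.37 ± 0.28, adjusted p = 4e-06). Hoxc8, which patterns the thorax, was at 9.16, 7.89 and 3.07 CPM in control and had 0 counts in all Neil1 libraries, at least 181-fold lower when the 3 mutant libraries together are set to a floor of 3 counts; Hoxc11 was at least 64.7-fold lower on the same floor. Hoxb6 had 179 times as high a CPM in control as in Neil1 mutant EBs (95% counting interval 49.3 to 1483), with 2 counts in all mutant libraries. The genes not called were Hoxb4 (-0.61 ± 0.41), Hoxb13 (-0.69 ± 0.50) and Hoxc13 (0.17 ± 0.30), so the terminal group was not lowered throughout.

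Control clone #7 was the lowest control for most Hox genes. The list sum was 160.3, 141 and 77.4 CPM in the control libraries, in clone order, and 14.4, 17.5 and 19.5 CPM in the Neil1 libraries. The median over the list was -0.64 (log2, from the control mean) in control clone #7 and -3.28 to -2.96 in the Neil1 clones, so the groups remained apart for this clone too. Many Hox genes were near 0 in the mutants: among those with at least 10 counts in every library, 9 of 11 were lowered and the median was -1.42.

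**Figure D3:**
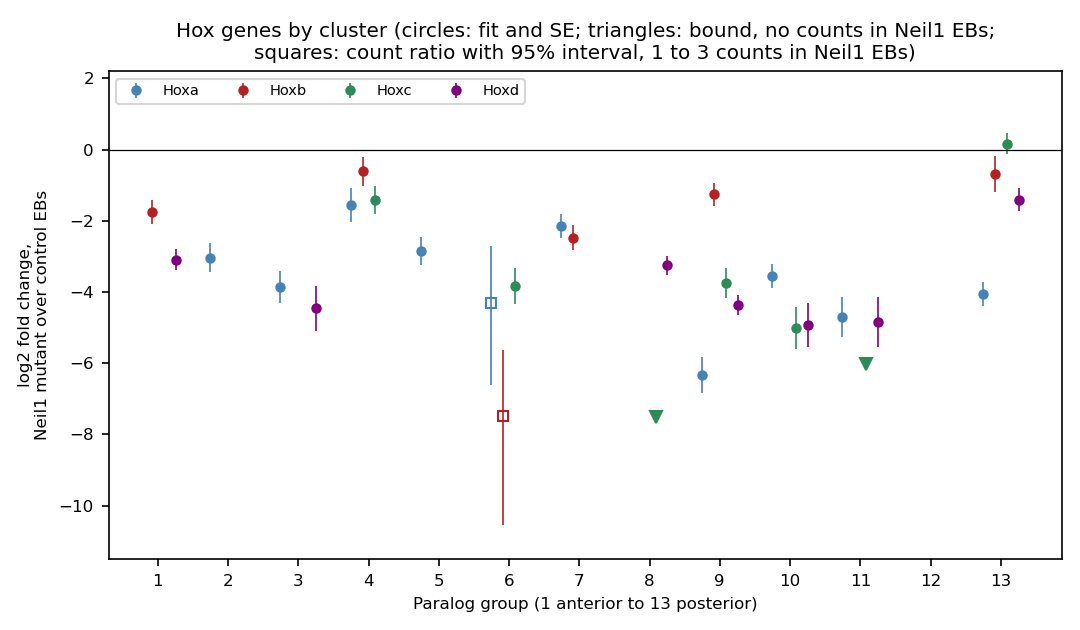
log2 fold change of tested Hox genes, Neil1 mutant over control EBs, by paralog group (horizontal axis, anterior to posterior) and cluster (colour); error bars of circles are standard errors, triangles are bounds for genes without counts in Neil1 EBs, and squares are count ratios with 95% counting intervals. Only Hoxc13 lies above 0, and the values reach further down from paralog group 5 onwards.

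Mesoderm and mesenchyme. Of 15 tested genes of paraxial, intermediate and lateral plate mesoderm, 10 were lowered and 3 raised (median -1.79). Foxf1, a forkhead factor of lateral plate and extraembryonic mesoderm, was at 5.801, 5.68 and 2.79 CPM in the control libraries and 0.189, 0.154 and 0.0706 CPM in the Neil1 mutant libraries (log2 fold change -5.12 ± 0.45, adjusted p = 2.09e-05). Hand1, of lateral plate and extraembryonic mesoderm, was at 85.1, 104 and 85.02 CPM in control against 6.201, 6.16 and 11.9 CPM in Neil1 mutant EBs (log2 fold change -3.49 ± 0.26, adjusted p = 4.74e-05). Its relative Hand2 was at 10.2, 13.4 and 2.76 CPM in control against 0, 0.346 and 0.106 CPM in Neil1 mutant EBs (log2 fold change -5.76 ± 0.90, adjusted p = 0.00376). Both factors were low in all mutant clones, and control clone #7 was again the lowest control for Hand2. Among the 3 that rose were Wt1 (1.09 ± 0.24) and Tcf15 (1.05 ± 0.15). Wt1 acts in the developing kidney and gonad, and Tcf15, a somite gene, is also expressed in pluripotent cells that are about to differentiate.

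The mesenchymal matrix list gave 18 lowered and 1 raised of 23 tested genes (median -2.49). Col1a1, the main chain of type I collagen, was at 168, 187 and 92.4 CPM in the control libraries and 1.04, 0.924 and 0.918 CPM in the Neil1 mutant libraries (log2 fold change -7.28 ± 0.35, adjusted p = 1.3e-05). Tnc, the matrix protein tenascin C, was at 16.5, 17.5 and 9.38 CPM in control against 0.0947, 0.0385 and 0.106 CPM in Neil1 mutant EBs (log2 fold change -7.44 ± 0.41, adjusted p = 1.43e-06). Fibronectin (Fn1), which epithelia and endoderm also make, fell by less, from 1541, 1344 and 1134 CPM to 528, 475 and 659.9 CPM (log2 fold change -1.27 ± 0.14, adjusted p = 0.000198). Mesenchymal cadherin 11 (Cdh11) was at 57.3, 39.3 and 20.6 CPM in control against 2.13, 1.89 and 1.94 CPM in Neil1 mutant EBs, and the PDGF receptor Pdgfrb was at 30.2, 23.3 and 18.9 CPM in control against 2.65, 2.93 and 2.79 CPM in Neil1 mutant EBs. The gene that rose was Fbln5 (1.18 ± 0.47), whose libraries overlapped between the groups. Not called were Vcan, Col5a2, Thy1 and Eln; Vcan was at 103, 98.3 and 30.9 CPM in control against 38.7, 30.4 and 67.4 CPM in Neil1 mutant EBs, so control clone #7 was within the range of the mutants.

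Of 10 tested smooth muscle genes 9 were lowered (median -1.15). Acta2, the smooth muscle actin, was at 43.3, 52.3 and 20.7 CPM in the control libraries and 0.426, 0.231 and 0.424 CPM in the Neil1 mutant libraries (log2 fold change -6.74 ± 0.47, adjusted p = 5.32e-05). Transgelin (Tagln) was at 128, 129 and 126 CPM in control against 10.4, 5.93 and 9.32 CPM in Neil1 mutant EBs (log2 fold change -3.90 ± 0.18, adjusted p = 1.28e-06). Smtn (-0.056 ± 0.14) was the tested gene that was not called. Among the other contractile genes Cnn1 was at -1.42 ± 0.24, Myh11 at -1.25 ± 0.34 and Myl9 at -1.29 ± 0.19.

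Cardiac and endothelial genes. In the cardiomyocyte list 7 of 20 tested genes were lowered and 5 raised (median -0.12). Isl1, of cardiac progenitors, was at 5.21, 5.01 and 4.36 CPM in control against 0.331, 0.654 and 0.318 CPM in Neil1 mutant EBs (log2 fold change -3.46 ± 0.31, adjusted p = 2.3e-05). Tbx20, a T-box factor of the heart, was at 8.22, 6.08 and 7.33 CPM in control against 0.7101, 0.423 and 0.389 CPM in Neil1 mutant EBs (log2 fold change -3.85 ± 0.28, adjusted p = 7.68e-06). Cardiac actin (Actc1) was at 5.38, 4.46 and 4.33 CPM in control against 0.0473, 0.116 and 0.141 CPM in Neil1 mutant EBs (log2 fold change -5.43 ± 0.35, adjusted p = 4e-06). The defining factor Nkx2-5, of cardiac progenitors and cardiomyocytes, was not called and was under 1 CPM in every library (0.318, 0.369 and 0.454 CPM in control against 0.189, 0.808 and 0.389 CPM in Neil1 mutant EBs), and Myh6 (0.22 ± 0.34) and Myl7 (0.058 ± 0.20) were not called. The raised genes were Smyd1 (1.64 ± 0.18), Ryr2 (0.88 ± 0.16), Mybpc3, Nppb and Ttn. The Ttn level was 42.8 CPM in Neil1 clone #11 against 15.9 and 20.5 CPM in clones #7 and #9, and 14.7, 8.48 and 5.198 CPM in the controls. Without control replicate 1 or without control replicate 2 the list had 3 raised genes.

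In the endothelial list 9 of 23 tested genes were lowered and 4 raised (median -0.19). These shares were 39.1% and 17.4%, against 13.1% and 10.4% of all tested genes. Kdr, the VEGF receptor that marks mesodermal progenitors, was at 40.4, 29.1 and 36.6 CPM in the control libraries and 1.32, 1.58 and 1.13 CPM in the Neil1 mutant libraries (log2 fold change -4.72 ± 0.19, adjusted p = 2.02e-07). Etv2, the factor that starts the endothelial programme, was at 4.47, 4.94 and 4.396 CPM in control against 1.66, 1.35 and 0.989 CPM in Neil1 mutant EBs (log2 fold change -1.80 ± 0.25, adjusted p = 0.000381). Lmo2, a partner of blood and endothelial factors, was at 9.46, 6.75 and 5.06 CPM in control against 1.23, 1.04 and 1.31 CPM in Neil1 mutant EBs (log2 fold change -2.57 ± 0.28, adjusted p = 7.87e-05). Fli1 had 46.9 times as high a CPM in control as in Neil1 mutant EBs (95% counting interval 15.8 to 229). Cdh5, the endothelial cadherin, was at 3.28, 6.23 and 1.81 CPM in control against 3.69, 1.93 and 17.98 CPM in Neil1 mutant EBs (log2 fold change 1.08 ± 0.94, adjusted p = 0.459), with Neil1 clone #11 above every other library. Pecam1, which pluripotent cells also express, rose from 38.3, 39.7 and 36.2 CPM to 79.9, 74.9 and 79.9 CPM (log2 fold change 1.04 ± 0.087, adjusted p = 1.61e-05). Tek (1.52 ± 0.28), Robo4 (1.41 ± 0.23) and Eng (0.85 ± 0.22) rose too, and for each the level in Neil1 clone #11 was the highest of the 6 libraries.

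Primitive blood could hardly be read: of 19 measured erythroid genes 5 passed the filter on low counts, and the embryonic globins Hbb-bh1, Hbb-y and Hba-x were not among them. Of these 5, Epor was lowered (-1.10 ± 0.31) and Slc4a1 raised (0.91 ± 0.33). Of 7 tested macrophage genes 2 were raised (28.6%, against 10.4% of all tested genes), namely Cd14 (1.40 ± 0.41) and Laptm5 (0.84 ± 0.17). The defining receptor Csf1r was at 1.79, 3.21 and 2.23 CPM in control against 2.04, 2.002 and 5.298 CPM in Neil1 mutant EBs. Csf1r was not called. On a scale common to both stages, mean Laptm5 was higher in mESCs (65.2 CPM in control, 94.1 CPM in Neil1) than in EBs (15.5 and 27.9 CPM).

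**Figure D4:**
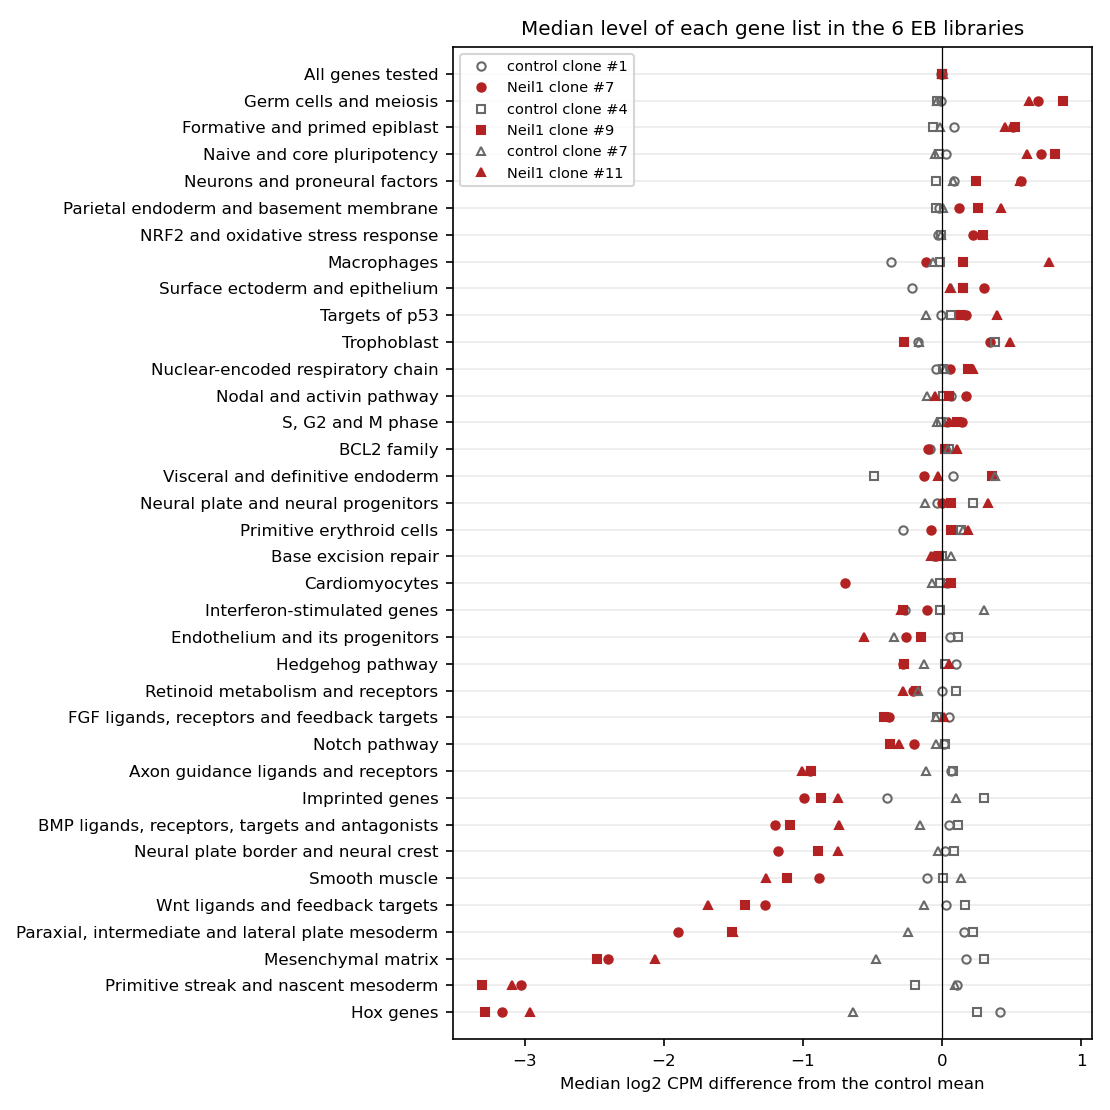
Median over the tested members of each gene list of the log2 CPM difference from the control mean, for each of the 6 EB libraries; open grey symbols are control clones and red symbols Neil1 clones. From axon guidance down to Hox genes the 3 Neil1 clones lie left of all controls; control clone #7 (grey triangle) is the leftmost control for Hox, mesenchymal matrix and patterned mesoderm genes.

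Signalling pathways. Of 25 tested Wnt ligands and feedback targets 16 were lowered and 3 raised (median -1.44). The lowered share was 64.0%, against 13.1% of all tested genes, and the raised share of 12.0% was near the 10.4% of all. Axin2, a feedback inhibitor that Wnt signalling turns on in most tissues, was at 99.1, 82.8 and 64.1 CPM in the control libraries and 20.5, 17.4 and 17.3 CPM in the Neil1 mutant libraries (log2 fold change -2.16 ± 0.16, adjusted p = 1.15e-05). The target Sp5 was at 15.2, 25.9 and 18.7 CPM in control against 0.994, 1.08 and 1.59 CPM in Neil1 mutant EBs (log2 fold change -4.01 ± 0.26, adjusted p = 4.77e-06). The secreted antagonist Dkk1, also a target, was at 41.3, 40.4 and 28.1 CPM in control against 2.08, 3.77 and 2.83 CPM in Neil1 mutant EBs (log2 fold change -3.65 ± 0.23, adjusted p = 5.61e-06). Lgr5, an R-spondin receptor, was at 8.68, 8.14 and 2.41 CPM in control against 0.284, 0.385 and 0.177 CPM in Neil1 mutant EBs (log2 fold change -4.51 ± 0.57, adjusted p = 0.000578). Among the ligands and agonists that fell were Wnt5b (-3.21 ± 0.18), Wnt6 (-2.24 ± 0.42), Wnt4 (-1.71 ± 0.23) and Rspo3 (-3.94 ± 0.21). The genes that rose were the extracellular antagonists Sfrp1 (0.78 ± 0.19) and Sfrp2 (0.71 ± 0.16) and the ligand Wnt7b, which was at 13.9, 21.2 and 15.9 CPM in control against 51.3, 52.4 and 17.1 CPM in Neil1 mutant EBs, within the control range in Neil1 clone #11.

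Of 20 tested BMP pathway genes 11 were lowered and 1 raised (median -1.08). The ligand Bmp4 was at 63.4, 67.96 and 47.1 CPM in the control libraries and 8.095, 9.82 and 9.11 CPM in the Neil1 mutant libraries (log2 fold change -2.72 ± 0.15, adjusted p = 1.44e-06). Its relative Bmp2 was at 28.8, 32.3 and 19.1 CPM in control against 2.56, 3.58 and 4.91 CPM in Neil1 mutant EBs (log2 fold change -2.84 ± 0.26, adjusted p = 7.23e-05). Bmp7 fell from 18.7, 19.7 and 19.01 CPM to 4.69, 5.47 and 4.87 CPM (log2 fold change -1.93 ± 0.14, adjusted p = 7.53e-06). Bmp5 had 151 times as high a CPM in control as in Neil1 mutant EBs (95% counting interval 26.8 to 5978). Receptor Bmpr1a did not pass the test (-0.11 ± 0.087). The direct targets Id1 (-1.65 ± 0.17) and Id3 (-1.87 ± 0.13) and the inhibitors Bambi (-2.35 ± 0.21) and Smad6 (-1.72 ± 0.44) fell, and so did the antagonist Nog (-1.46 ± 0.32). Id4 was the gene that rose (0.77 ± 0.16). Of the 20, 3 lie on chromosome 9 and all 3 were lowered; the chromosome median was lower in Neil1 clone #11 (above), and its part in them was not tested.

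Nodal and activin genes went both ways, with 4 raised and 3 lowered of 12 tested (median 0.089). Nodal itself was at 116, 103 and 87.1 CPM in control against 116, 107 and 142 CPM in Neil1 mutant EBs (log2 fold change 0.25 ± 0.13, adjusted p = 0.182). Its feedback inhibitor Lefty1 rose from 83.5, 86.5 and 46.6 CPM to 222, 217 and 333 CPM (log2 fold change 1.83 ± 0.29, adjusted p = 0.00498), and Lefty2 (1.17 ± 0.35), Gdf3 (1.32 ± 0.22) and Inhbb (2.28 ± 0.34) rose also. The co-receptor Cfc1 (-2.13 ± 0.28) and the effector Foxh1 (-0.72 ± 0.13) fell.

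The FGF list had 5 lowered and 1 raised of 18 (27.8% and 5.56%, against 13.1% and 10.4% of all tested genes). Fgf8, an FGF of streak and tail bud, was at 33.5, 55.4 and 50.97 CPM in the control libraries and 6.53, 7.24 and 3.18 CPM in the Neil1 mutant libraries (log2 fold change -3.05 ± 0.32, adjusted p = 0.000401). Fgf10, a limb and lung FGF, was at 40.6, 31.4 and 30.3 CPM in control against 3.31, 5.81 and 4.17 CPM in Neil1 mutant EBs (log2 fold change -2.94 ± 0.21, adjusted p = 8.4e-06). The feedback genes Spry4 (-0.56 ± 0.11) and Spred1 (-1.35 ± 0.14) fell, and Fgf15 rose (0.54 ± 0.15). Of 18 tested Notch genes 8 were lowered (44.4%) and 4 raised (22.2%). The receptors Notch1 (0.52 ± 0.14) and Notch4 (1.18 ± 0.12) rose and Notch3 (-1.12 ± 0.13) fell. The targets Hes1 (-1.21 ± 0.10), Hey2 (-2.09 ± 0.35) and Nrarp (-1.74 ± 0.21) fell. Hedgehog genes numbered 5 lowered (38.5%) and 4 raised (30.8%) of 13. The targets Gli1 (0.80 ± 0.31) and Hhip (1.44 ± 0.43) rose. The co-receptors Gas1 (-2.91 ± 0.19), Boc (-1.68 ± 0.20) and Cdon (-0.58 ± 0.20) fell. Ptch1 rose (log2 fold change 0.51 ± 0.20, adjusted p = 0.0936) with overlapping libraries. Without Neil1 replicate 3 the lowered Hedgehog genes numbered 3. Retinoid genes gave 5 lowered (31.2%) and 1 raised (6.25%) of 16. Among the lowered ones were the RA-making enzymes Aldh1a2 (-0.99 ± 0.27) and Aldh1a3 (-3.12 ± 0.60), and the RA-degrading enzymes Cyp26a1 (-0.98 ± 0.36) and Cyp26b1 (-1.42 ± 0.37). The RA target Rarb was at 0.675, 0.921 and 0.454 CPM in control against 0.994, 0.539 and 0.5298 CPM in Neil1 mutant EBs and was not called.

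Ectoderm and neural lineages. Neural plate border and neural crest genes were lowered in 12 and raised in 2 of 21 tested genes (median -1.10). Msx1, a homeobox target of BMP in border and mesoderm, was at 99.7, 116 and 61.8 CPM in the control libraries and 3.79, 2.96 and 2.402 CPM in the Neil1 mutant libraries (log2 fold change -4.94 ± 0.28, adjusted p = 1.43e-05). Msx2 was at 70.5, 80.6 and 58.8 CPM in control against 8.62, 7.51 and 4.804 CPM in Neil1 mutant EBs (log2 fold change -3.34 ± 0.21, adjusted p = 9.81e-06). Sox9 was at 2.48, 3.54 and 1.47 CPM in control against 0.473, 0.193 and 0.212 CPM in Neil1 mutant EBs (log2 fold change -3.12 ± 0.45, adjusted p = 0.000536). Snai2, a factor of migrating cells, was at 4.97, 5.16 and 1.95 CPM in control against 0.426, 1.12 and 0.636 CPM in Neil1 mutant EBs (log2 fold change -2.45 ± 0.45, adjusted p = 0.00285). Sox10, which defines migrating crest and its glia, was low in all libraries (1.15, 0.774 and 2.23 CPM in control against 0.521, 0.423 and 0.706 CPM in Neil1 mutant EBs; log2 fold change -1.31 ± 0.43, adjusted p = 0.0418). The genes that rose were Foxd3 (0.94 ± 0.21), which pluripotent cells also express, and Erbb3 (0.88 ± 0.21). Tfap2a, a border factor, was at 4.11, 4.17 and 4.99 CPM in control against 2.98, 4.04 and 5.76 CPM in Neil1 mutant EBs and was not called (-0.044 ± 0.25).

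Of 32 tested axon guidance genes 18 were lowered and 0 raised (median -0.91). The semaphorin receptor Nrp1 was at 62.6, 52.1 and 17.6 CPM in control against 0.757, 1.89 and 1.41 CPM in Neil1 mutant EBs (log2 fold change -4.999 ± 0.64, adjusted p = 0.00293). Its relative Nrp2 was at 116, 108 and 57.1 CPM in control against 17.3, 17.8 and 17.4 CPM in Neil1 mutant EBs (log2 fold change -2.42 ± 0.25, adjusted p = 0.000419). Both are also made by vessels and mesenchyme. The ligands Sema3a (-3.77 ± 0.30), Sema3f (-1.85 ± 0.17) and Slit3 (-1.49 ± 0.16) and the Slit receptor Robo2 (-3.93 ± 0.72) fell. The netrin receptor Dcc (-0.22 ± 0.29), its ligand Ntn1 (-0.33 ± 0.15) and Robo1 (-0.0071 ± 0.15) were not called.

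Of 18 tested neuronal genes 7 were raised, 1 was lowered and 10 were not called (median 0.40). Tubb3, the neuronal tubulin, was at 29.6, 29.4 and 15.9 CPM in the control libraries and 52.6, 64.1 and 55.03 CPM in the Neil1 mutant libraries (log2 fold change 1.19 ± 0.22, adjusted p = 0.00445). The proneural factor Neurod1 was at 0.974, 0.627 and 0.872 CPM in control against 1.94, 1.89 and 5.47 CPM in Neil1 mutant EBs (log2 fold change 1.90 ± 0.44, adjusted p = 0.0104). Elavl3, an RNA-binding protein of early neurons, was at 2.29, 3.28 and 3.17 CPM in control against 6.63, 7.12 and 5.09 CPM in Neil1 mutant EBs (log2 fold change 1.12 ± 0.23, adjusted p = 0.00409). Crmp1 (1.69 ± 0.29) and Ina (0.83 ± 0.15) rose as well. Gap43, of growing axons, fell (-1.36 ± 0.30). The migration gene Dcx and the factors Neurog1 and Neurog2 did not pass the filter on low counts. Of neural plate and progenitor genes 4 were raised and 4 lowered of 18 (median 0.024). Each share was 22.2%, against 10.4% raised and 13.1% lowered over all tested genes. Sox1, a neural progenitor marker of this list, matched no gene entry and was not measured. Pax6, of forebrain and eye progenitors, was at 0.616, 1.03 and 0.907 CPM in control against 3.03, 2.502 and 7.28 CPM in Neil1 mutant EBs (log2 fold change 2.36 ± 0.43, adjusted p = 0.00302). Sox21 (1.15 ± 0.21), En2 (1.24 ± 0.29) and Nkx6-2 (1.22 ± 0.37) rose. Nestin (Nes) was at 28.8, 29.01 and 42.3 CPM in control against 17.04, 13.9 and 14.8 CPM in Neil1 mutant EBs (log2 fold change -1.13 ± 0.16, adjusted p = 0.000628). Msi1 (-0.88 ± 0.13), Fabp7 (-2.11 ± 0.53) and Nkx6-1 (-2.57 ± 0.57) fell. On a scale common to mESCs and EBs, Tubb3, Crmp1, Neurod1 and Pax6 averaged 103, 39.1, 7.74 and 7.85 CPM in control mESCs. They averaged 27.1, 8.11, 0.8925 and 0.922 CPM in control EBs and 62.2, 26.1, 3.365 and 4.63 CPM in mutant EBs. In mutant mESCs these genes averaged 87.35, 28.9, 3.10 and 2.94 CPM. For all of them the mutant EBs lay between control EBs and control mESCs. Set beside mutant mESCs, mean Tubb3 and Crmp1 were lower in mutant EBs, and mean Neurod1 and Pax6 were higher. Whether the rises came from neural cells was not tested.

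Pluripotency and germ cells. Of 23 naive and core pluripotency genes 18 were raised and 0 lowered (median 0.66). The summed level was 4578, 4695 and 4985 CPM in control and 7751, 8470.0 and 6958 CPM in Neil1 mutant EBs. Pou5f1, the core pluripotency factor, was at 391, 377 and 378 CPM in the control libraries and 709, 761 and 699.8 CPM in the Neil1 mutant libraries (log2 fold change 0.92 ± 0.076, adjusted p = 1.39e-05). Nanog was at 307, 318 and 376 CPM in control against 544, 584 and 399 CPM in Neil1 mutant EBs (log2 fold change 0.61 ± 0.14, adjusted p = 0.0106). Sox2 was at 278, 293 and 278 CPM in control against 449.5, 536 and 429 CPM in Neil1 mutant EBs (log2 fold change 0.74 ± 0.094, adjusted p = 0.000244). Both showed the same order with smaller gaps. Fgf4, a target of the Pou5f1 and Sox2 pair, was at 85.3, 75.8 and 79.96 CPM in control against 210.2, 215 and 214 CPM in Neil1 mutant EBs (log2 fold change 1.41 ± 0.079, adjusted p = 1.44e-06), with hardly any spread within either genotype. Zfp42 (0.60 ± 0.072), Esrrb (0.65 ± 0.078) and Klf4 (0.61 ± 0.11), which mark the naive state, rose. Nr0b1 rose most (log2 fold change 1.85 ± 0.35, adjusted p = 0.012), and it lies on chromosome X at 83.4 Mb, between the raised windows, where too few genes were expressed to give a window value. Not called were Klf5, Tbx3, Sall4, Nr5a2 and Lin28a, of which Lin28a was at 419.6, 392 and 424 CPM in control against 368, 338 and 355 CPM in Neil1 mutant EBs. Several of these genes have processed pseudogenes, Pou5f1, Nanog and Dppa5a among them, so their counts are less certain.

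Of 11 tested genes of the formative and primed epiblast 5 were raised and 1 lowered (median 0.71). Otx2, which marks the exit to the formative state and the anterior neural plate, was at 53.2, 46.03 and 53.5 CPM in the control libraries and 108, 106 and 116 CPM in the Neil1 mutant libraries (log2 fold change 1.11 ± 0.092, adjusted p = 1.45e-05). Fgf5, the defining primed marker, was at 20.3, 18.6 and 27.6 CPM in control against 53.02, 39.5 and 21.7 CPM in Neil1 mutant EBs (log2 fold change 0.78 ± 0.32, adjusted p = 0.122), so Neil1 clone #11 was within the control range. The de novo methyltransferase Dnmt3a (0.73 ± 0.10), Zic2, Zic5 and Tcf7l1, a repressor of Wnt targets (0.77 ± 0.12), rose. Neural cadherin (Cdh2), which cells turn on as they leave the epiblast, fell from 119, 101 and 76.2 CPM to 13.9, 15.8 and 9.54 CPM (log2 fold change -2.92 ± 0.22, adjusted p = 4.29e-05). The epithelial cadherin Cdh1 rose from 286, 299 and 332 CPM to 472, 444 and 424 CPM (log2 fold change 0.55 ± 0.085, adjusted p = 0.000848).

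Germ cell and meiosis genes were raised in 13 and lowered in 0 of 22 tested genes (median 0.74). Dazl, an RNA-binding protein of germ cells, was at 17.1, 15.6 and 20.7 CPM in the control libraries and 37.02, 46.4 and 34.5 CPM in the Neil1 mutant libraries (log2 fold change 1.15 ± 0.15, adjusted p = 0.00025). Hormad1 of the meiotic axis was at 12.8, 10.4 and 8.23 CPM in control against 33.5, 35.5 and 73.8 CPM in Neil1 mutant EBs (log2 fold change 2.18 ± 0.35, adjusted p = 0.00418). Stra8, the RA-dependent meiotic entry gene, was at 1.81, 5.97 and 5.896 CPM in control against 12.4, 17.6 and 10.1 CPM in Neil1 mutant EBs (log2 fold change 1.58 ± 0.44, adjusted p = 0.0333). The cohesin Stag3 (0.62 ± 0.08), the synaptonemal gene Sycp3 (0.95 ± 0.16) and the factor Sohlh2 (1.30 ± 0.12) rose. Ddx4, the classic germ cell marker, was at 17.8, 15.8 and 16.2 CPM in control against 27.3, 22.6 and 17.5 CPM in Neil1 mutant EBs (log2 fold change 0.43 ± 0.16, adjusted p = 0.0653) and was not called, and nor was the recombinase Dmc1 (-0.0094 ± 0.14). Of the 13 that rose, Rhox9, Tex11 and Taf7l lie on chromosome X, and of these Tex11 lies in a raised window.

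Endoderm, epithelium and trophoblast. Of 28 tested visceral and definitive endoderm genes 2 were raised and 1 lowered (median 0.026), a share below that of all genes. Afp, the fetal serum protein of visceral endoderm, was at 77.7, 40.5 and 193 CPM in the control libraries and 222, 228 and 104 CPM in the Neil1 mutant libraries (log2 fold change 0.83 ± 0.70, adjusted p = 0.456), with the lowest and the highest control on either side of Neil1 clone #11. Foxa2 (11.8, 14.4 and 11.2 CPM in control against 8.24, 11.9 and 9.68 CPM in Neil1 mutant EBs) and Sox17 (23.8, 26.7 and 17.9 CPM in control against 13.1, 17.2 and 19.8 CPM in Neil1 mutant EBs) overlapped between the groups. Apoa2 (1.02 ± 0.36) and Sox7 (0.70 ± 0.20) rose and Foxa1 fell (-0.72 ± 0.27). Within the controls, the list median was lowest in clone #4 (-0.488) and highest in clone #7 (0.378), a spread wider than the difference between genotypes. Of 16 parietal endoderm and basement membrane genes 2 were raised (12.5%, against 10.4% of all tested genes), namely Lama1 and Thbd (1.55 ± 0.26). The laminin chain Lama1 was at 110.5, 104 and 168 CPM in control against 219.8, 262 and 359.6 CPM in Neil1 mutant EBs (log2 fold change 1.14 ± 0.24, adjusted p = 0.014). Sparc (0.34 ± 0.15) and Col4a1 (0.34 ± 0.10) were not called.

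In the surface ectoderm and epithelium list 4 of 23 tested genes were lowered and 2 raised (median 0.22). These shares, 17.4% and 8.7%, were near the 13.1% and 10.4% of all tested genes. The simple epithelial keratins fell. Krt8 went from 683, 1063 and 824 CPM to 244, 251 and 406 CPM (log2 fold change -1.51 ± 0.25, adjusted p = 0.00454). Krt18 went from 394, 598 and 640.1 CPM to 175, 194 and 258 CPM (log2 fold change -1.38 ± 0.21, adjusted p = 0.00249). The basal factor Trp63 (-1.86 ± 0.48) fell too. Grhl2, an activator of epithelial genes, rose with Cdh1 (0.65 ± 0.091). Among 12 tested trophoblast genes 2 were raised, Elf5 (0.85 ± 0.28) and Tfap2c (0.56 ± 0.10), and 2 lowered, Gata3 (-0.57 ± 0.15) and the imprinted gene Peg10 (2551, 4762 and 3812 CPM in control against 1157, 1092 and 1288 CPM in Neil1 mutant EBs; log2 fold change -1.65 ± 0.21, adjusted p = 0.000826). Each share was 16.7%, against 10.4% raised and 13.1% lowered over all tested genes.

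Stress, repair and growth. Of 30 tested p53 target genes 6 were raised and 1 lowered (median 0.20), and Bax is counted both here and in the BCL2 family, which had 3 raised and 1 lowered of 15. The raised share was 20.0% in each list and the lowered share 3.33% and 6.67%, against 10.4% and 13.1% of all tested genes. The cell cycle inhibitor Cdkn1a, the best known target, was at 142, 150.3 and 128 CPM in the control libraries and 89.2, 81.6 and 139 CPM in the Neil1 mutant libraries (log2 fold change -0.44 ± 0.19, adjusted p = 0.117). The death receptor Eda2r rose from 50.9, 49.98 and 32.9 CPM to 153, 126 and 171 CPM (log2 fold change 1.75 ± 0.18, adjusted p = 0.000185) but lies in a raised window of chromosome X. The autosomal gene Trp53inp1 was at 264, 231 and 213 CPM in control against 353, 326 and 414 CPM in Neil1 mutant EBs (log2 fold change 0.62 ± 0.11, adjusted p = 0.00174). Gdf15, a secreted stress factor, was at 0.914, 1.88 and 1.08 CPM in control against 2.84, 3.23 and 3.71 CPM in Neil1 mutant EBs (log2 fold change 1.36 ± 0.30, adjusted p = 0.00675). Both rose, together with Plk3, Ephx1 and Bax (0.56 ± 0.14), and Mdm2 missed the fold limit (0.45 ± 0.12). Fas fell (-1.86 ± 0.51). The death-promoting genes Bik (0.91 ± 0.21) and Hrk (0.85 ± 0.27) rose, and the survival gene Bcl2 fell (log2 fold change -1.33 ± 0.31, adjusted p = 0.00836).

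Of 22 base excision repair genes Neil1 alone was called; Neil2 (0.40 ± 0.22), Neil3 (-0.40 ± 0.14), Ogg1 (-0.09 ± 0.14), Tdg (-0.011 ± 0.083) and Ung (0.44 ± 0.078) were not. In the NRF2 and oxidative stress list 6 of 23 tested genes were raised and 0 lowered (median 0.23). The raised share was 26.1%, against 10.4% of all tested genes. Nqo1, the standard NRF2 target, was at 20.5, 23.2 and 21.1 CPM in the control libraries and 30.96, 37.5 and 49.1 CPM in the Neil1 mutant libraries (log2 fold change 0.86 ± 0.16, adjusted p = 0.00237). Gpx4, which reduces lipid peroxides, was at 631, 845 and 648 CPM in control against 1328, 1478 and 1224 CPM in Neil1 mutant EBs (log2 fold change 0.92 ± 0.12, adjusted p = 0.000355). Mitochondrial superoxide dismutase Sod2 was at 77.4, 78.4 and 72.9 CPM in control against 136, 159.9 and 120.3 CPM in Neil1 mutant EBs (log2 fold change 0.86 ± 0.11, adjusted p = 0.00019). Gclm (0.67 ± 0.093) and Gsta4 (0.68 ± 0.13) rose too, and G6pdx (1.21 ± 0.092) lies in a raised window of X. Of 51 nuclear genes of the respiratory chain 1 was raised, Cox7b, also in a raised window of X; the list median was 0.16 and the tested genes ranged narrowly (quartiles 0.044 and 0.264). The mitochondrially encoded genes held no counts in any library. Of 30 genes of S, G2 and M phase edgeR and DESeq2 both called 0 (9 higher and 1 lower in the mutants at an unadjusted p below 0.05), Mki67 being at 259.8, 248 and 316 CPM in control against 250.3, 254 and 220.4 CPM in Neil1 mutant EBs (-0.19 ± 0.10). Of 22 interferon-stimulated genes 7 were lowered and 3 raised, and Isg15 and Usp18 fell most. The lowered share was 31.8%, against 13.1% of all tested genes, and the raised share of 13.6% was near the 10.4% of all. Isg15 was at 4.51, 7.52 and 12.8 CPM in control against 0.994, 1.04 and 0.389 CPM in Neil1 mutant EBs (log2 fold change -3.37 ± 0.47, adjusted p = 0.000958). Usp18 was at 2.64, 4.13 and 6.49 CPM in control against 0.331, 0.116 and 0.353 CPM in Neil1 mutant EBs (log2 fold change -4.03 ± 0.46, adjusted p = 0.000158). Among those that rose was Ifitm1 (0.72 ± 0.13), which early germ cells also express.

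Imprinted genes. Of 25 tested imprinted genes 7 were lowered (28.0%, against 13.1% of all tested genes) and 0 raised (median -0.98). However, the controls disagreed among themselves. Grb10 was at 310.4, 13.1 and 18.3 CPM in the control libraries and 45.7, 30.7 and 15.7 CPM in the Neil1 mutant libraries, and H19 at 507, 5580.0 and 3080.0 CPM in control against 1099, 1157 and 1222 CPM in Neil1 mutant EBs. Mest was at 85.7, 552 and 311 CPM in control against 55.4, 49.3 and 91.3 CPM in Neil1 mutant EBs and Igf2 at 1714, 312 and 279.9 CPM in control against 112, 119 and 13.2 CPM in Neil1 mutant EBs. For these 4 genes control clone #1 lay apart from the other controls, higher for Grb10 and Igf2 and lower for H19 and Mest, and none of the 4 was called. The genes that fell included Peg3, a zinc finger gene, at 672, 1107 and 961 CPM in control against 228, 229.7 and 256 CPM in Neil1 mutant EBs (log2 fold change -1.94 ± 0.17, adjusted p = 6.04e-05). Phlda2, a growth inhibitor of the placenta, was at 96.7, 48.98 and 57.1 CPM in control against 15.6, 15.4 and 6.32 CPM in Neil1 mutant EBs (log2 fold change -2.45 ± 0.44, adjusted p = 0.0103). The number of lowered genes was 11 without control replicate 1 and 4 without Neil1 replicate 1.

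Largest rises outside the lists. Outside the sex chromosomes, the 5 largest rises among genes without overlap were of C330008G21Rik, Prl7a1, Gfra1, Capn3 and Alppl2. Gfra1, the GDNF co-receptor, was at 0.477, 0.516 and 0.244 CPM in the control libraries and 3.83, 3.503 and 4.52 CPM in the Neil1 mutant libraries (log2 fold change 3.23 ± 0.31, adjusted p = 3.71e-05). Alppl2, a placental-type alkaline phosphatase also found in early embryos, was at 1.21, 1.36 and 1.29 CPM in control against 8.38, 12.1 and 4.59 CPM in Neil1 mutant EBs (log2 fold change 2.69 ± 0.34, adjusted p = 0.000271). Capn3 was at 7.37, 6.04 and 3.35 CPM in control against 26.4, 24.9 and 64.9 CPM in Neil1 mutant EBs (log2 fold change 2.78 ± 0.51, adjusted p = 0.0111). Prl7a1, a prolactin-family gene of trophoblast giant cells, was at 0.338, 1.25 and 0.314 CPM in control against 2.89, 1.31 and 14.9 CPM in Neil1 mutant EBs (log2 fold change 3.41 ± 1.16, adjusted p = 0.0855), so its mean was set by Neil1 clone #11.

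Stages. The same clones had been sequenced as mESCs and as EBs with 5 µM RA from day 4, which allowed the difference in EBs to be set beside the difference before differentiation and under RA, by an interaction test. Levels in this paragraph and the next are on 1 scale for all 3 stages and are given as mean ± SD, n = 3 clones. The mESC library of Neil1 clone #11 stood apart: of 576 genes of chromosome X tested in EBs it had no counts for 389, against 1 to 4 in the other mESC libraries, and X took 0.941% of its counts against 4.45% and 4.38% in Neil1 clones #7 and #9 and 3.22% to 3.32% in the controls. As EBs with RA, X took 3.26% of the counts of this clone, against 4.37% and 4.19% in the other Neil1 clones. Genes of the sex chromosomes were therefore left out of the tests with mESCs. As mESCs, 2.84% of 14980 genes were called between the genotypes, and of the streak genes 0 of 12 tested were by edgeR (1 at an unadjusted p below 0.05). Without the library of Neil1 clone #11, an alternative chosen after the data were seen, edgeR called 0 of 15281 genes, with 12.0% at an unadjusted p below 0.05. T was at 0.905 ± 0.222 CPM in control and 0.626 ± 0.332 CPM in Neil1 mESCs, and at 87.9 ± 27.7 and 4.702 ± 1.62 CPM in EBs (interaction -3.65 ± 0.55, adjusted p = 0.00114). Mixl1 went from 0.975 ± 0.04399 and 0.838 ± 0.268 CPM in mESCs to 94.3 ± 23.6 and 2.91 ± 1.33 CPM in EBs (interaction -4.79 ± 0.52, adjusted p = 8.72e-05). The interaction with stage was found in 11.6% of 15704 genes (6.60% with a lower difference in EBs), in 13 of 17 streak genes, 25 of 31 Hox genes and 15 of 23 mesenchymal matrix genes with a lower difference in EBs, and in 12 of 22 naive pluripotency genes. Without Neil1 clone #11 at both stages these were 12 of 17, 18 of 36, 12 of 23 and 10 of 22. Because the same clones gave both stages, the test was repeated with clone as a block, which gave 12 of 17, 22 of 31, 14 of 23 and 11 of 22. Only 12 streak, 15 Hox and 17 matrix genes passed the filter on low counts in mESCs alone. For members near 0 in mESCs of both genotypes, a fall in EBs gives a lower difference by construction. Their interactions therefore add nothing to the fall in EBs, and such low mESC levels leave little room for a call. Pou5f1 dropped from 914 ± 4.15 CPM in control mESCs to 414 ± 8.61 CPM in control EBs, and from 1023 ± 166 to 786 ± 37.5 CPM in the mutants (interaction 0.80 ± 0.17, adjusted p = 0.0101). The Dazl level in mESCs was also called (29.7 ± 3.03 CPM in control, 57.2 ± 4.99 CPM in Neil1; interaction 0.24 ± 0.20, adjusted p = 0.561), but no longer without Neil1 clone #11.

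With RA the genotypes differed at 41.1% of 16019 genes (21.2% raised, 19.9% lowered), and the interaction with RA was found in 32.2% of 16706 genes (17.3% with a higher and 14.8% with a lower difference in EBs + RA). T was under 1 CPM in both genotypes with RA, at 0.309 ± 0.157 CPM in control and 0.294 ± 0.1505 CPM in Neil1 EBs + RA (interaction 4.22 ± 0.69, adjusted p = 0.00138). Of 13 streak genes tested with RA 5 were raised and 2 lowered (median 0.92). Lhx1 was at 30.9 ± 8.05 CPM in control and 2.32 ± 1.02 CPM in Neil1 EBs + RA, and Nkx1-2 at 1.51 ± 0.852 and 0.0249 ± 0.04303 CPM, and these were the lowered ones. Snai1, not called with RA, was at 23.7 ± 6.35 and 46.04 ± 31.6 CPM. Of 18 streak genes 14 passed the interaction test, 13 of them with a higher difference in EBs + RA. For members near 0 with RA in both genotypes, such as T, the fall in EBs gives this interaction by construction. Hox genes turned less negative, with a median of -0.91 over 29 genes tested with RA (9 raised and 15 lowered) and 24 of 31 interactions. Hoxc8, without a count in mutant EBs, was at 8.72 ± 1.48 CPM in control and 7.17 ± 2.61 CPM in Neil1 EBs + RA. Col1a1 remained low in the mutants (59.7 ± 21.7 and 1.42 ± 0.412 CPM with RA). Of the 18 neuronal genes tested in EBs, of which 7 were raised there, 15 were lowered and 0 raised with RA, and the interaction passed the test for 15, all with a lower difference with RA. Tubb3, higher in mutant EBs, was at 102 ± 34.2 CPM in control and 18.1 ± 8.47 CPM in Neil1 EBs + RA (interaction -3.69 ± 0.49, adjusted p = 0.000503). Pax6 was at 104 ± 47.7 and 5.302 ± 1.73 CPM (interaction -6.66 ± 0.70, adjusted p = 0.000111). Krt8 turned the other way, from 928 ± 208 and 326 ± 98.03 CPM in EBs to 605 ± 125 and 1634 ± 825 CPM with RA (interaction 2.95 ± 0.47, adjusted p = 0.00149). Of the epithelial genes, 21 of 23 were raised with RA. Naive pluripotency genes were raised at both, 20 of 23 with RA, though at a lower level; Pou5f1 was at 17.1 ± 3.84 CPM in control and 61.9 ± 26.5 CPM in mutant EBs + RA.

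**Figure D5:**
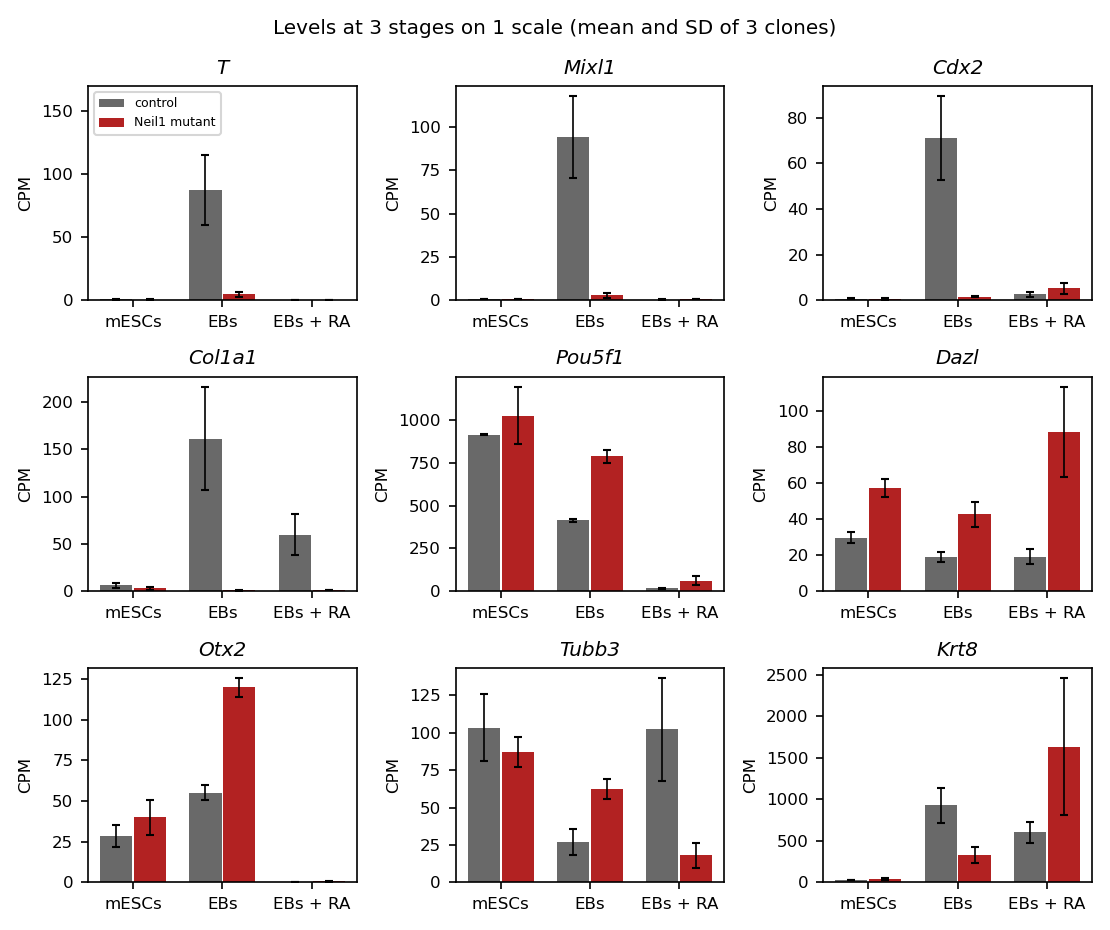
Mean level of 9 genes in control (grey) and Neil1 mutant (red) mESCs, EBs and EBs with RA, in CPM on a linear axis from 0; error bars are the SD of 3 clones. T, Mixl1 and Cdx2 are high in control EBs alone, Pou5f1 stays nearer its mESC level in mutant EBs, and Tubb3 and Krt8 differ in opposite directions in EBs and EBs with RA.

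Beside Neil2. Neil2 mutant EBs (clones #1, #11 and #14) lack a related glycosylase and were compared with the same 3 controls, so the values share their control samples. In Neil2 mutant EBs 9.48% of genes were raised and 9.05% lowered. Streak genes had a median of -3.13 (15 of 18 lowered), Hox genes -2.85 (27 of 31), mesenchymal matrix genes -2.11 (19 of 23) and naive pluripotency genes 0.63 (15 of 23 raised), beside -3.27, -3.54, -2.49 and 0.66 in Neil1 mutant EBs. T was at log2 fold change -5.13 and Pou5f1 at 0.70 in Neil2, and at -4.24 and 0.92 in Neil1 mutant EBs. Eda2r, G6pdx and Cox7b, in the raised windows of X, were at 1.455, 1.06 and 0.89 in Neil2 mutant EBs. In Neil1 mutant EBs they were at 1.75, 1.21 and 1.14. Nr0b1, between these windows, was at 1.365 in Neil2 and 1.85 in Neil1 mutant EBs. Whether the Neil2 clones share the X windows was not tested. The near values of the mutants therefore do not set the genotype apart from the X pattern. The direct contrast of Neil1 with Neil2 called 0 of 15806 genes by edgeR, 7.58% had an unadjusted p below 0.05, and DESeq2 called 1. Without Neil2 replicate 2 the contrast called 666, so the 0 is not a statement that the mutants were alike. The Neil1 minus Neil2 difference was 0.89 ± 0.49 for T, -1.47 ± 0.44 for Col1a1 and 0.22 ± 0.21 for Pou5f1 (log2).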

How the data were processed

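RNA-seq libraries (Illumina TruSeq, poly-A selected) of 3 clones per genotype were analysed. Per the labels and the study's methods, the authors aligned reads with TopHat2 2.0.9 (Bowtie2 2.1.0) to NCBIM37, made gene counts with HTSeq 0.5.4 and tested with DESeq2 1.6.3; the deposited values are raw counts for 37991 genes per library. Multiply mapped reads (14.5% to 17.2% of the file total) and other rows that name no gene were left out. Sequences of the guides were located in NCBIM37 with GENCODE annotation.

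Counts were filtered (filterByExpr), scaled by TMM (factors 0.966 to 1.04) and tested with edgeR 4.0.16 (R 4.3.3; quasi-likelihood, robust, Benjamini-Hochberg), called at a false discovery rate below 0.1 with an absolute log2 fold change above 0.5. CPM are TMM-scaled. Interactions used libraries of both stages, without (main) or with clone as a block. Gene lists got no test. The procedure was tested on simulated counts. Replicate pairs differed by far more than counting noise (chi-square per degree of freedom 9.63 and above). Exact permutation of 3 against 3 libraries cannot go below p = 0.1, hence the fit across genes. The members and lists were chosen with earlier results of these data known. By rule the first gene of each list, the 2 largest called changes in it and the 5 largest rises and falls are named; other genes were named after their values were seen, and some genes are not reported here. Of 841 list entries 835 matched. Sox1, Ahsp, Syna, Synb, Rhox5 and Kcnq1ot1 matched no gene entry. Counts of Tnnc1, Trf, Dab2, Rex2, Pou3f1, Hoxa3, Fgfr1, Efna5 and Ndufb8, which have overlapping gene entries, are uncertain.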

Additional observations from a re-analysis of the deposited data

Results flagged for a closer look

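Results came up for a second look because the difference between the genotypes was itself tested between conditions. The Neil1 minus control difference differed between EBs and EBs with RA at 5374 genes and between mESCs and EBs at 1820 genes (edgeR interaction terms, false discovery rate below 0.1), each with 3 clones per genotype and condition. With clone as a block, since the same clones gave both conditions, the numbers were 6610 and 1385. The number for RA was 2859 without control replicate 1 and 2582 without control replicate 2, and the number for mESCs was 1086 and 767 without these replicates, 1172 without Neil1 replicate 1 and 1152 without Neil1 replicate 3.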

How the results depend on the processing

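The numbers of raised and lowered genes stayed within 1.5 times of 1611 and 2023 under DESeq2, its size factors, no filter on low counts, a minimum of 10 counts in every library, the replicate block, all genotypes in 1 fit and without chromosomes X and Y, and when any 1 library was left out; with an absolute log2 fold change above 1 they were 686 and 1074. Under that limit 4 neuronal, 3 cardiomyocyte, 5 naive pluripotency, 1 primed epiblast, 7 germ cell, 3 p53 target and 1 NRF2 genes were raised, and 5 Notch, 3 Hedgehog and 3 retinoid genes lowered. The minimum of 10 counts removes members near 0 in the mutants: lowered genes then numbered 7 in the neural crest, 4 in the patterned mesoderm, 4 in the cardiomyocyte, 5 in the endothelial, 9 in the Hox and 3 in the retinoid list, and medians became 0.48 for neural progenitors, -0.54 for neural crest, -3.02 for primitive streak, -0.36 for patterned mesoderm, -1.42 for Hox, -0.44 for Notch and -0.79 for axon guidance. Without chromosomes X and Y the median was -0.16 for neural progenitors and -3.53 for primitive streak. The Nodal median was -0.071 by DESeq2 and -0.081 with no filter, and the NRF2 median 0.29 with all genotypes in 1 fit. Lowered imprinted genes numbered 4 with no filter, 11 with all genotypes and 11 with the replicate block. DESeq2 called 1 gene between Neil1 and Neil2 EBs. Except where a construction is given, the cause was not tested.

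Leaving out 1 library at a time gave medians of -0.0068 to 0.36 for neural progenitors, -1.30 to -0.71 for neural crest, -2.35 to -1.58 for patterned mesoderm, -1.46 to -1.04 for smooth muscle, -0.62 to 0.088 for erythroid, -0.023 to 0.62 for trophoblast, 0.47 to 0.75 for primed epiblast, 0.59 to 0.78 for germ cell, -0.55 to -0.24 for Notch, -1.75 to -1.39 for Wnt, -0.030 to 0.15 for Nodal, -0.41 to -0.0012 for Hedgehog and 0.22 to 0.38 for NRF2 genes. The erythroid median, over 5 genes, was reversed to -0.62 without Neil1 replicate 2. Raised cardiomyocyte genes ranged from 3 to 5, lowered Hedgehog genes from 3 to 5, lowered imprinted genes from 4 to 11, RA interaction genes from 2582 to 5946, mESC interaction genes from 767 to 2396, and genes called between Neil1 and Neil2 from 0 to 666.

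Equal replicate numbers link different clones, and same-numbered libraries did not deviate together (r across genes -0.0019, -0.125 and -0.147), so the numbers do not pair the samples. With the replicate block 1468 genes were raised and 1916 lowered. Between stages the clone does pair the libraries, and the block of clones gave 6610 genes for the RA and 1385 for the mESC interaction. Genes called between mESCs numbered 425, and 0 without Neil1 replicate 3 (chosen after the data were seen). For 94 tested genes named by the rule, 1321 of 1383 alternative values kept direction and call, 56 lost the call, 6 gained it and 0 reversed; the block ended the calls of Neil1, Ptch1 and Prl7a1. Genes without counts in the mutants are limited by depth to the bounds given, which cover counting error only.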

Other observations

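The separation of control clone #1 from the other controls at imprinted genes, described for EBs, was present at the other stages of the same clones (values chosen after they were seen; CPM on 1 scale for all stages, control clones #1, #4 and #7). Grb10 was at 179.5, 39.2 and 39.8 CPM in mESCs, 336, 14.1 and 19.8 CPM in EBs and 796, 6.48 and 11.2 CPM in EBs with RA. H19 was at 47.4, 186 and 245 CPM in mESCs and 899, 7655 and 9824 CPM in EBs with RA, and Igf2, its neighbour, at 32.6, 6.32 and 16.9 and 3777, 515 and 1680.0 CPM. Mest was at 7.77, 95.4 and 135 CPM in mESCs and 107, 660.1 and 677 CPM in EBs with RA, and Plagl1 at 4.301, 27.1 and 42.5 and 103, 820.1 and 350.3 CPM. In every one of these sets control clone #1 was the highest control for Grb10 and Igf2 and the lowest for H19, Mest and Plagl1. The Neil1 clones were at 91.04, 38.3 and 61.7 CPM for Grb10 in mESCs and at 73.2, 16.4 and 17.6 CPM in EBs with RA. For Igf2, Neil1 clone #11 was the lowest mutant at all 3 stages, at 27.6, 29.8 and 7.38 CPM in mESCs, 122, 129 and 14.3 CPM in EBs and 1839, 1857 and 291 CPM in EBs with RA (Neil1 clones #7, #9 and #11). These differences lie between clones within a genotype and were not tested.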
